A study of Mus musculus with 6 samples.

Results

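The nuclear receptors are a family of transcription factors, many of which bind a small fat-soluble ligand directly. The members were taken by name as the 44 genes of the family, among them Ppard, the receptor PPAR delta. All 44 were found, each on a single row, of 23827 genes in the table. Levels are in RPKM, read counts scaled for transcript length and library size, and the 27 members with a mean of at least 1 RPKM over the libraries were tested. The other 17 are given by their levels.

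Messenger RNA of brain endothelial cells, the cells that line brain vessels, was measured in mouse embryos at E14.5 (embryonic day). It was taken by TRAP (translating ribosome affinity purification), in which RNA is recovered together with ribosomes that carry a tag in the cells of interest. The first group of 3 libraries came from embryos labelled R26 Axin1 IresLacZ overexpression. Axin1 organises the destruction complex of beta-catenin and so dampens canonical Wnt signalling. The second group was 3 libraries labelled Wt, the wild type. Both groups were of the strain C57BL/6 x 129/Sv, and in both the mother had received tamoxifen at E12.5. The sources used here do not give the driver of the overexpression, the ribosome tag or the number of embryos behind a library. The labels call the libraries biological replicates.

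Axin1 itself had 37.8, 38.1 and 37.4 RPKM in the Axin1 libraries, against 13.6, 14.4 and 15.1 RPKM in wild type, and its log2 fold change was 1.34 (SE 0.06 by limma, adjusted p = 2.25e-05). The Axin1 libraries held between 21076907 and 37040175 recovered reads and the wild-type ones between 53524157 and 62507473. The column names carry the tag RS216 for every Axin1 library and RS148 for every wild-type one. If these tags mark a run or batch, it cannot be told apart from genotype. The 10 endothelial markers, all detected, summed to between 2161 and 2422 RPKM in the Axin1 libraries, against 2236 to 2313 RPKM in wild type. Of these markers Emcn was higher and Tie1 and Esam were lower, and the list median log2 fold change was -0.14. Markers of other cell types were detected in both groups, and several lists moved with genotype. The 10 neural progenitor markers summed to 2212 to 2302 RPKM in the Axin1 libraries, against 1721 to 1880 RPKM in wild type, and 6 of the 10 were higher. Most of this sum was Vim (1469 RPKM with Axin1 overexpression and 1167 RPKM in wild type) and Nes (431 and 373 RPKM). Nes, Hes5, Slc1a3 and Notch1 did not pass a limma adjusted p under 0.05. Their log2 fold changes were 0.20, 0.05, 0.05 and -0.22. The erythroid markers, of which Hbb-b1 was at 0 in all libraries, summed to 321 to 643 RPKM in the Axin1 libraries, against 98.1 to 126 RPKM in wild type. Most of this sum was Hbb-y, at a mean of 402 RPKM with Axin1 overexpression and 91.3 RPKM in wild type. Of the 5 tested erythroid markers 4 were higher and 1, Epor, was lower. Hba-a1 stood on more than 1 row and was left out. The meningeal fibroblast markers summed to 149 to 180 RPKM in the Axin1 libraries, against 178 to 253 RPKM in wild type. The pericyte and smooth muscle markers summed to 30.4 to 43.2 RPKM in the Axin1 libraries, against 42.2 to 50.2 RPKM in wild type.

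A nuclear receptor typically joins a zinc-finger domain that reads DNA to a domain that holds the ligand. Without ligand, many receptors recruit corepressors such as NCOR1, and ligand exchanges these for coactivators. The receptors for thyroid hormone, retinoic acid, fatty acids and oxysterols bind DNA with RXR as a shared partner. Steroid receptors wait in a complex with the chaperone HSP90, and the REV-ERB and ROR receptors compete for the same sites in clock genes. Orphan receptors have no agreed natural ligand or act without one. In brain vessels these receptors are studied as links from vitamins, hormones and lipids to the barrier between blood and brain.

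Stretches of 3 promoters are shown, of the genes with the largest fall (Ppard) and the largest rises (Nr2e1 and Nr4a1) among the tested members. Nr2f2 was looked up as well, but annotated exons cover the 250 bases before its start, so it is not shown. In each stretch only the letters named with it were searched for and marked, so an unmarked motif is not an absent one. Sequences were taken from RefSeq on GRCm38.p6, and each covers bases before the gene's start that no annotated exon touches. In Ppard (chr17:28232504-28232699, plus strand, 196 bases) the capitals mark TCAAAG, which is CTTTGA on the other strand. CTTTGA and CTTTGT are core letters read by TCF and LEF, the DNA-binding partners of beta-catenin.
Ppard: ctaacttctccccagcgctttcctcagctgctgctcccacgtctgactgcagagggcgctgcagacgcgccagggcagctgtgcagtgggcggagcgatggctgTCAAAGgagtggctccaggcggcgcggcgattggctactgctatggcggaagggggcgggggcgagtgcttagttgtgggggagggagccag
In Nr2e1 (chr10:42583633-42583821, minus strand, 189 bases) and in Nr4a1 (chr15:101266596-101266845, plus strand, 250 bases) the capitals mark TGACG or its complement CGTCA, the half-site of the cyclic AMP response element.
Nr2e1: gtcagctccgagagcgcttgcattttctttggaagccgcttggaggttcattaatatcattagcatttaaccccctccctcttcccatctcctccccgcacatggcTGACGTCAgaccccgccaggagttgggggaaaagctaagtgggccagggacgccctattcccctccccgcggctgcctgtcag
Nr4a1: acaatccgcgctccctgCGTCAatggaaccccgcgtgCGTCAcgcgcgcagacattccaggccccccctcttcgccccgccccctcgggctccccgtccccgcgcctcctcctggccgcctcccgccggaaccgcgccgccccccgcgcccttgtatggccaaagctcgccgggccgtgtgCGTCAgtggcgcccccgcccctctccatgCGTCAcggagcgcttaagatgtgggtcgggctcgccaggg
The Nr2e1 stretch held TGACGTCA, a match on each strand that overlap. The Nr4a1 stretch held 4 separate CGTCA runs. Of the 44 members, 41 had an entry, with 62 windows of 250 bases before a start. CTTTGA or CTTTGT stood on either strand of 11 of these 62 windows (17.7%), and of 27.6% of all 32851 windows. TGACG stood in 13 of the 62 (21.0%), and in 17.8% of all windows. AGGTCA, the half-site of many nuclear receptors, stood in 11 of the 62 (17.7%), and in 14.02% of all windows. A match of so few letters is a description of the window and not a binding site.

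Of the 27 tested members, 9 changed with Axin1 overexpression at a limma adjusted p under 0.05, which is 33.3%, against 22.8% of all 12493 tested genes. Rises made up 6 of these, which is 22.2% of the tested members against 14.4% of all genes. Falls made up 3, which is 11.1% against 8.37%. Higher were Nr2e1, Nr4a1, Nr2f2, Nr2f1, Esr1 and Rarg, and lower were Ppard, Rora and Nr2f6. The libraries of the groups did not overlap for 14 members (51.9%), against 43.9% of all tested genes. In 7 of them every Axin1 library lay above every wild-type one (28.0% of all genes did), and in 7 every Axin1 library lay below (15.9% of all genes did). The median log2 fold change was -0.03 over the members and 0.04 over all tested genes. Of the 9 calls, those of Ppard and Nr2e1 held under every alternative processing tried. Without Axin1 replicate 2 a single rise passed the threshold, that of Nr2e1, and without Axin1 replicate 3 there were 3 rises. Without Axin1 replicate 1, or without replicate 3, a single fall passed, that of Ppard. With the libraries rescaled to a median of ratios, the members split into 4 rises and 4 falls, and all genes into 1248 rises and 1392 falls in place of 1800 and 1046. In the authors' deposited table, 6 members had an adjusted p under 0.05, and 5 of these are among the 9, in the same direction.

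**Figure D1:**
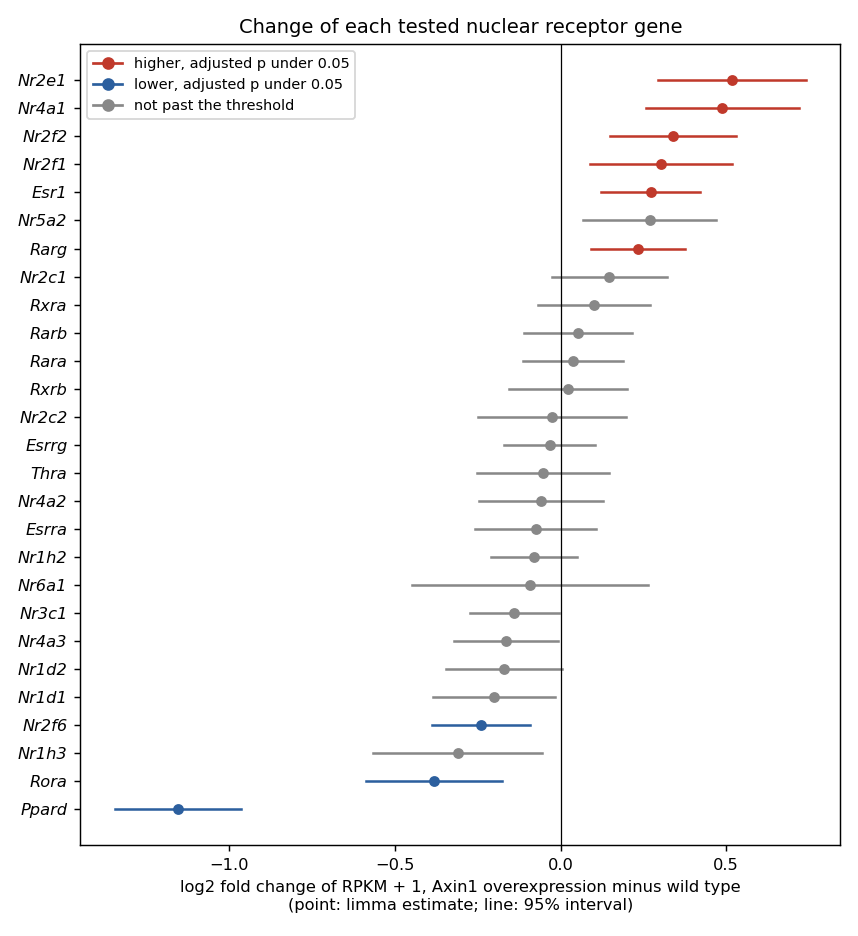
Log2 fold change of RPKM + 1, Axin1 overexpression minus wild type, for the 27 tested nuclear receptor genes, as the limma estimate (point) with its 95% interval (line). Ppard stands apart at -1.15, while the other members lie between -0.38 and 0.52.

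Ppard was the tested member that changed most. PPAR delta senses fatty acids and drives genes of fatty acid use. Its level was 37.2, 43.6 and 45.4 RPKM in the Axin1 libraries, against 96.7, 97.5 and 89.6 RPKM in wild type. Every Axin1 library lay far below every wild-type one. The means were 42.1 ± 4.32 RPKM with Axin1 overexpression and 94.6 ± 4.33 RPKM in wild type (SD, n = 3 each), a ratio of 0.445. The log2 fold change was -1.15 (SE 0.08, limma adjusted p = 0.000138) and lay between -1.21 and -1.01 under the alternatives. Among the 12493 tested genes only 31 had a lower log2 fold change of RPKM + 1, so Ppard ranked 32 from the lowest. This scale understates the change of low genes, so the rank is not one of RPKM ratios. Aldh1a1, at 0.958 RPKM with Axin1 overexpression and 2.79 RPKM in wild type, had a log2 fold change of -0.97 on it. These values rest on 12638 recovered reads in the Axin1 libraries and 52572 in wild type. The authors' deposited table gives a fold of 2.32, which is wild type over Axin1, with an adjusted p of 1.22e-33. In bulk RNA, fewer cells of a type and less RNA per cell cannot be told apart.

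The other PPARs were low in both groups, so the total of the subfamily followed Ppard. Ppard made up 99.3% of the summed PPAR level with Axin1 overexpression and 99.7% in wild type. Ppara, the fatty acid receptor best known from liver, had 0.166, 0.203 and 0.173 RPKM in the Axin1 libraries, against 0.232, 0.350 and 0.252 RPKM in wild type. Pparg, the adipocyte receptor, had 0.0999, 0.102 and 0.144 RPKM in the Axin1 libraries, against 0.0391, 0.0114 and 0.0211 RPKM in wild type. Neither overlapped between the groups, Ppara being lower and Pparg higher with Axin1 overexpression. Both lay under 1 RPKM and were not tested. The Pparg values stand for 17 recovered reads in the Axin1 libraries and 7 in wild type.

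Oxysterol receptors came in an abundant and a scarce form. Nr1h2 (LXR beta) had 35.4, 36.1 and 37.4 RPKM in the Axin1 libraries, against 39.0, 38.4 and 37.7 RPKM in wild type. The groups did not overlap, but the log2 fold change of -0.08 (95% interval -0.21 to 0.05) did not pass the threshold (limma adjusted p = 0.334). Nr1h3 (LXR alpha), itself a target of LXR, had 0.844, 1.38 and 1.07 RPKM in the Axin1 libraries, against 1.74, 1.27 and 1.79 RPKM in wild type. The groups overlapped through wild-type replicate 2. Its log2 fold change was -0.31 (95% interval -0.56 to -0.06, limma adjusted p = 0.0763), and without that library it was -0.41 (limma adjusted p = 0.0367). The authors' deposited table gives Nr1h3 a fold of 1.56, wild type over Axin1, with an adjusted p of 0.0423.

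Across all 8 receptors for lipids, sterols and xenobiotics, the summed level was 80.2 ± 5.44 RPKM with Axin1 overexpression and 135 ± 4.82 RPKM in wild type (SD, n = 3 each). Over all 44 members the sum was 530.4 ± 18.1 RPKM with Axin1 overexpression and 566 ± 24.0 RPKM in wild type. Without Ppard the family summed to 488 ± 15.4 RPKM with Axin1 overexpression and 471 ± 19.9 RPKM in wild type. Leaving out this 1 gene put the Axin1 mean above the wild-type mean, though the sums were not tested. Ppard held 7.92% ± 0.668 of the family's summed RPKM with Axin1 overexpression and 16.7% ± 0.227 in wild type.

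**Figure D2:**
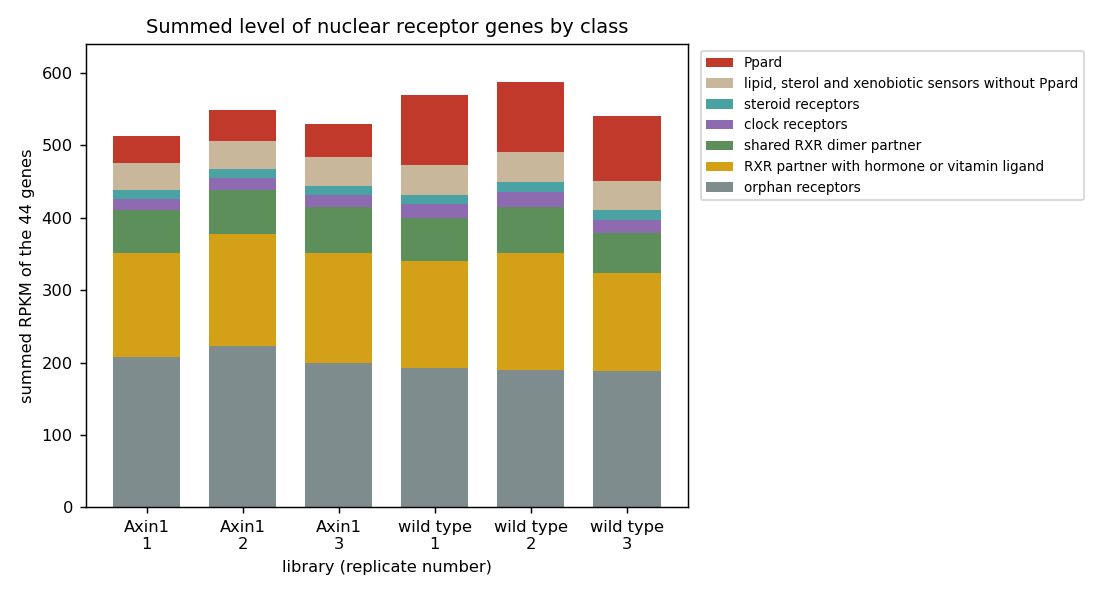
Summed RPKM of the 44 nuclear receptor genes in each library, stacked by receptor class with Ppard on top; Axin1 libraries 1 to 3 stand left of wild-type libraries 1 to 3. The Ppard block is 37.2 to 45.4 RPKM high in the Axin1 libraries and 89.6 to 97.5 RPKM high in wild type, while the blocks under it differ less.

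The receptors with hormone or vitamin ligands that pair with RXR were led by Thra, the thyroid hormone receptor alpha. Thra had the highest mean of the family in both groups, with 91.6, 98.9 and 98.7 RPKM in the Axin1 libraries and 100.3, 112 and 89.1 RPKM in wild type. The groups overlapped, and the log2 fold change was -0.05 (95% interval -0.25 to 0.15, limma adjusted p = 0.690). Thrb, the beta receptor, stayed at a mean of 0.226 RPKM with Axin1 overexpression and 0.252 RPKM in wild type.

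All 3 retinoic acid receptors reached the filter, and 1 of the 3 rose. The value of Rarb is uncertain, since its exons overlap those of Top2b on the opposite strand. Rarg had 29.3, 31.3 and 29.2 RPKM in the Axin1 libraries, against 25.7, 26.02 and 24.1 RPKM in wild type. Every Axin1 library lay above every wild-type one, with means of 29.9 ± 1.18 RPKM under Axin1 overexpression and 25.3 ± 1.02 RPKM in wild type (SD, n = 3 each). The log2 fold change was 0.23 (SE 0.06, limma adjusted p = 0.0300). This call was lost under both rescalings (0.19 by the median of ratios and 0.18 by the upper quartile, limma adjusted p of 0.0569 and 0.0644). It was also lost without Axin1 replicate 1, 2 or 3 and without wild-type replicate 1 or 3.

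Rara did not pass the threshold, at 19.9 ± 0.0963 RPKM with Axin1 overexpression and 19.4 ± 1.36 RPKM in wild type (SD, n = 3 each). Nor did Rarb, at 3.26 ± 0.160 RPKM with Axin1 overexpression and 3.11 ± 0.299 RPKM in wild type. Rarg was the main retinoic acid receptor in both groups, with 56.3% ± 0.838 of their summed RPKM under Axin1 overexpression and 52.9% ± 0.986 in wild type. Vdr, the vitamin D receptor, had 15 recovered reads in the Axin1 libraries and 7 in wild type.

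The RXRs, which serve all these receptors as partners, summed to 61.2 ± 1.85 RPKM with Axin1 overexpression and 59.3 ± 3.65 RPKM in wild type (SD, n = 3 each). Rxrb was the highest, with 40.2, 43.0 and 46.3 RPKM in the Axin1 libraries and 43.5, 44.9 and 39.0 RPKM in wild type. Its groups overlapped, and the log2 fold change was 0.02 (95% interval -0.16 to 0.20, limma adjusted p = 0.852). Rxra averaged 17.2 ± 1.22 RPKM with Axin1 overexpression and 16.0 ± 1.03 RPKM in wild type, with a log2 fold change of 0.10 (95% interval -0.07 to 0.27). It passed the threshold once each library was corrected for GC content and transcript length (0.28, limma adjusted p = 0.0188). Rxrg stayed under 1 RPKM, at means of 0.797 with Axin1 overexpression and 0.835 in wild type.

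Orphan receptors held the largest summed level of any class. Of their 13 tested members 5 changed (38.5%), against 4 of the 14 in other classes (28.6%) and 22.8% of all tested genes. The difference between these shares was not tested. Nr2f1 (COUP-TFI) patterns the embryonic cortex. It had 55.6, 62.1 and 52.7 RPKM in the Axin1 libraries, against 50.8, 40.9 and 46.0 RPKM in wild type, without overlap. The log2 fold change was 0.30 (SE 0.09, limma adjusted p = 0.0487). This rise lay at the threshold and lost its call in 11 of 18 alternatives, among them the replicate block (limma adjusted p = 0.0666), both rescalings, and leaving out Axin1 replicate 1, 2 or 3 or wild-type replicate 2 or 3.

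Nr2f2 (COUP-TFII), which maintains the identity of veins, rose as well. It had 41.3, 47.6 and 38.8 RPKM in the Axin1 libraries, against 34.0, 31.5 and 34.5 RPKM in wild type. Every Axin1 library lay above every wild-type one, and the log2 fold change was 0.34 (SE 0.08, limma adjusted p = 0.0233). Without Axin1 replicate 2 it was 0.26 (limma adjusted p = 0.0817), and without wild-type replicate 2 it was 0.30 (limma adjusted p = 0.0563). The call was also lost with no filter on low values (limma adjusted p = 0.0523).

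Nr2f6, the remaining COUP-TF, went the other way. It had 36.4, 35.5 and 35.9 RPKM in the Axin1 libraries, against 41.6, 45.9 and 40.7 RPKM in wild type. Again the groups did not overlap, with a log2 fold change of -0.24 (SE 0.07, adjusted p = 0.0319 by limma). It was -0.11 after correction for GC content and transcript length (limma adjusted p = 0.310). The call was also lost with the replicate block (limma adjusted p = 0.0507), with reads thinned to the shallowest library (limma adjusted p = 0.0508) and when any single library other than wild-type replicate 3 was left out. Nr2f6 made up 26.6% ± 1.97 of the COUP-TF sum with Axin1 overexpression and 35.1% ± 3.24 in wild type.

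The COUP-TFs share exon bases with genes on the opposite strand, and the TruSeq kit named in the labels does not mark strand, so reads of the partners cannot be told apart in the shared bases. The partner of Nr2f1, A830082K12Rik, averaged 2.84 ± 0.357 RPKM with Axin1 overexpression and 2.40 ± 0.299 RPKM in wild type (SD, n = 3 each). The partner of Nr2f2, B130024G19Rik, averaged 0.587 ± 0.107 RPKM with Axin1 overexpression and 0.444 ± 0.0482 RPKM in wild type. The partner of Nr2f6, Ocel1, averaged 8.16 ± 1.36 RPKM with Axin1 overexpression and 8.53 ± 1.25 RPKM in wild type. These 3 partners were below the receptor beside them in both groups. A830082K12Rik and Ocel1 did not pass the test, and B130024G19Rik was under the filter. Other partners were above their receptor. Top2b, beside Rarb, averaged 120.6 ± 4.64 RPKM with Axin1 overexpression and 100.3 ± 21.7 RPKM in wild type. Tomm40l, beside Nr1i3, averaged 24.0 ± 1.11 RPKM with Axin1 overexpression and 23.4 ± 1.011 RPKM in wild type. Trmt112, beside Esrra, averaged 17.2 ± 0.477 RPKM with Axin1 overexpression and 16.9 ± 1.06 RPKM in wild type. Thra, beside Nr1d1, averaged 96.4 ± 4.16 RPKM with Axin1 overexpression and 100.4 ± 11.4 RPKM in wild type. The values of Rarb, Nr1i3, Esrra and Nr1d1 are therefore uncertain. Mrps25, beside Nr2c2, averaged 12.9 ± 0.850 RPKM with Axin1 overexpression and 11.4 ± 0.615 RPKM in wild type. That is close to the level of Nr2c2, whose value is uncertain as well. Rora and Gm15511 overlap each other in the same way.

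Nr2e1 (Tlx), which keeps neural stem cells dividing, rose the most of the tested members. It had 10.9, 11.5 and 8.997 RPKM in the Axin1 libraries, against 7.74, 6.44 and 6.81 RPKM in wild type. Every Axin1 library lay above every wild-type one, with a log2 fold change of 0.52 (SE 0.10, adjusted p = 0.00953 by limma). The call held under all alternatives, where the value lay between 0.27 and 0.61. Neural progenitor markers moved the same way, with Sox2 at 58.2 ± 5.91 RPKM under Axin1 overexpression and 33.6 ± 4.52 RPKM in wild type (log2 fold change 0.78, limma adjusted p = 0.00310). Of the 10 neural progenitor markers, 6 were higher and 0 lower by limma (6 and 1 at an unadjusted p under 0.05, 6 and 0 by voom). Their part in the rises of Nr2e1 and Nr2f1 was not tested.

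Nr4a1 (Nur77), an orphan receptor switched on quickly by many stimuli, had 10.6, 13.3 and 12.9 RPKM in the Axin1 libraries, against 7.46, 8.58 and 9.27 RPKM in wild type. The groups did not overlap, and the log2 fold change was 0.49 (SE 0.10, limma adjusted p = 0.0131). Without Axin1 replicate 2 it was 0.43 (limma adjusted p = 0.0550). Its relatives did not pass the threshold in the main test. Nr4a2 (Nurr1) averaged 8.65 ± 0.870 RPKM with Axin1 overexpression and 9.04 ± 0.609 RPKM in wild type (SD, n = 3 each), and its groups overlapped. Nr4a3 (Nor1) averaged 2.14 ± 0.135 RPKM with Axin1 overexpression and 2.52 ± 0.218 RPKM in wild type, without overlap. Its log2 fold change of -0.17 (limma adjusted p = 0.111) passed the threshold only after correction for GC content and transcript length (-0.24, limma adjusted p = 0.0372).

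Of the remaining tested orphan receptors, Nr5a2 (LRH-1) came closest to the threshold, with 4.41, 4.63 and 4.59 RPKM in the Axin1 libraries, against 3.64, 3.07 and 4.16 RPKM in wild type. Its groups did not overlap, and the log2 fold change was 0.27 (95% interval 0.07 to 0.47, limma adjusted p = 0.0576). Without wild-type replicate 3 it was 0.35 (limma adjusted p = 0.0269). Nr2c2 (TR4) had 14.53, 15.4 and 13.7 RPKM in the Axin1 libraries and 13.1, 17.3 and 14.4 RPKM in wild type. Its relative Nr2c1 (TR2) averaged 3.55 ± 0.273 RPKM with Axin1 overexpression and 3.11 ± 0.285 RPKM in wild type (SD, n = 3 each). Esrra, a regulator of mitochondrial genes, had 13.3, 13.8 and 14.2 RPKM in the Axin1 libraries and 14.48, 16.2 and 13.1 RPKM in wild type. Each of these 3 overlapped between the groups, and so did both members given next. Esrrg averaged 2.28 ± 0.0700 RPKM with Axin1 overexpression and 2.36 ± 0.141 RPKM in wild type. Nr6a1 (GCNF) had 1.31, 1.19 and 0.865 RPKM in the Axin1 libraries and 1.03, 1.94 and 0.918 RPKM in wild type, where replicate 2 stood high.

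**Figure D3:**
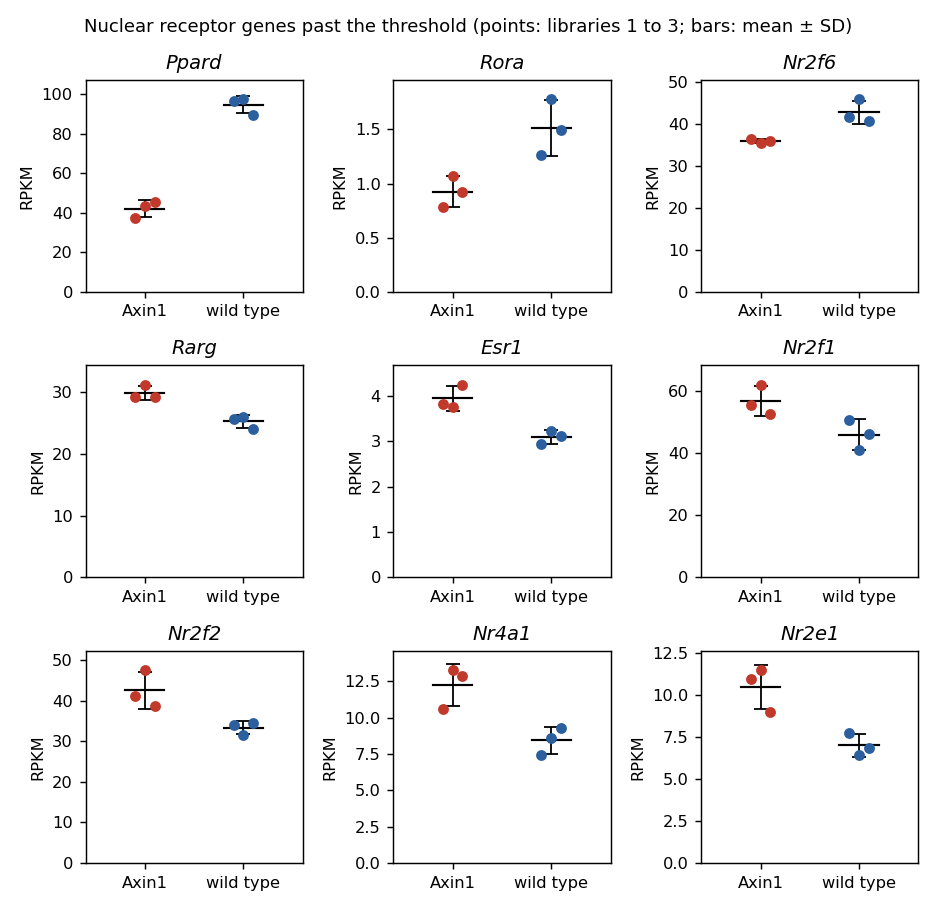
RPKM of the 9 nuclear receptor genes past the threshold, in Axin1 overexpression (left) and wild type (right) of each panel; points are libraries 1 to 3 and bars the mean ± SD, on axes that start at 0. In each of the 9 panels the libraries of the groups do not overlap, as for 43.9% of all tested genes. The 9 genes were picked by the test on these same libraries, so the lack of overlap is no further support. The gap is widest for Ppard.

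Clock receptors summed to 16.2 ± 0.706 RPKM with Axin1 overexpression and 19.2 ± 1.96 RPKM in wild type (SD, n = 3 each), a sum that was not tested. Rora, an activator of clock genes, had 0.785, 1.07 and 0.922 RPKM in the Axin1 libraries, against 1.26, 1.78 and 1.49 RPKM in wild type. It was the only clock receptor to pass, with a log2 fold change of -0.38 (SE 0.09, adjusted p = 0.0198 by limma), and its groups did not overlap. Its level is low, with 144 recovered reads in the Axin1 libraries and 426 in wild type. The call was lost without Axin1 replicate 1 (limma adjusted p = 0.0596) or 3 (limma adjusted p = 0.0583). It was also lost with no filter on low values (RPKM or voom) and with a pseudocount of 10. The log2 fold change lay between -0.68 and -0.076 over the 17 alternatives. The value of -0.076 came with the pseudocount of 10, which is far above the level of Rora.

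The repressor Nr1d1 (REV-ERB alpha) had 11.5, 11.8 and 12.4 RPKM in the Axin1 libraries, against 13.6, 15.5 and 12.6 RPKM in wild type. The groups did not overlap, but the log2 fold change of -0.20 (95% interval -0.39 to -0.02) had a limma adjusted p of 0.103. Nr1d2 (REV-ERB beta) averaged 2.80 ± 0.259 RPKM with Axin1 overexpression and 3.28 ± 0.300 RPKM in wild type (SD, n = 3 each), with overlap. Rorb stayed at 0.547 ± 0.0277 RPKM with Axin1 overexpression and 0.552 ± 0.0228 RPKM in wild type.

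Among the steroid receptors, Nr3c1, the glucocorticoid receptor, was the most abundant, with 8.15, 8.30 and 8.60 RPKM in the Axin1 libraries and 8.90, 9.55 and 9.45 RPKM in wild type. All Axin1 libraries were below all wild-type ones. The log2 fold change of -0.14 (95% interval -0.27 to -0.01) did not pass (limma adjusted p = 0.117), but it was -0.19 after rescaling to a median of ratios (limma adjusted p = 0.0467). Esr1, the estrogen receptor alpha, rose, with 3.83, 3.76 and 4.26 RPKM in the Axin1 libraries, against 2.94, 3.24 and 3.12 RPKM in wild type. The groups did not overlap, and the log2 fold change was 0.27 (SE 0.07, limma adjusted p = 0.0214). That call was lost without Axin1 replicate 2 (limma adjusted p = 0.0564) or 3 (limma adjusted p = 0.0784), without wild-type replicate 1 (limma adjusted p = 0.0629), and with a pseudocount of 10.

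The mineralocorticoid receptor Nr3c2 lay under 1 RPKM and was not tested. It had 0.638, 0.661 and 0.545 RPKM in the Axin1 libraries, against 1.13, 0.762 and 0.826 RPKM in wild type, and every Axin1 library was lower. Pgr, the progesterone receptor, averaged 0.147 ± 0.0336 RPKM with Axin1 overexpression and 0.230 ± 0.0625 RPKM in wild type (SD, n = 3 each), with overlap. Esr2, the estrogen receptor beta, had 11 recovered reads in the Axin1 libraries and 26 in wild type.

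In the order of levels, RPKM being a level per length, Thra and Ppard led wild type with overlapping ranges, and a gap separated them from Nr2f1, Nr2f6, Rxrb and Nr1h2. Ranges of neighbours overlapped among these 4, and Nr2f2, Rarg and Rara followed, each separate from its neighbour. With Axin1 overexpression Thra stood alone, Nr2f1 came next and separate, and Ppard had rank 5, against rank 2 in wild type. There it could not be told from Rxrb and Nr2f2 above it or from Nr1h2 below it by its range. Of the 44 members, 14 had a mean of at least 10 RPKM, 13 between 1 and 10, 10 between 0.1 and 1, and 7 under 0.1 RPKM.

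**Figure D4:**
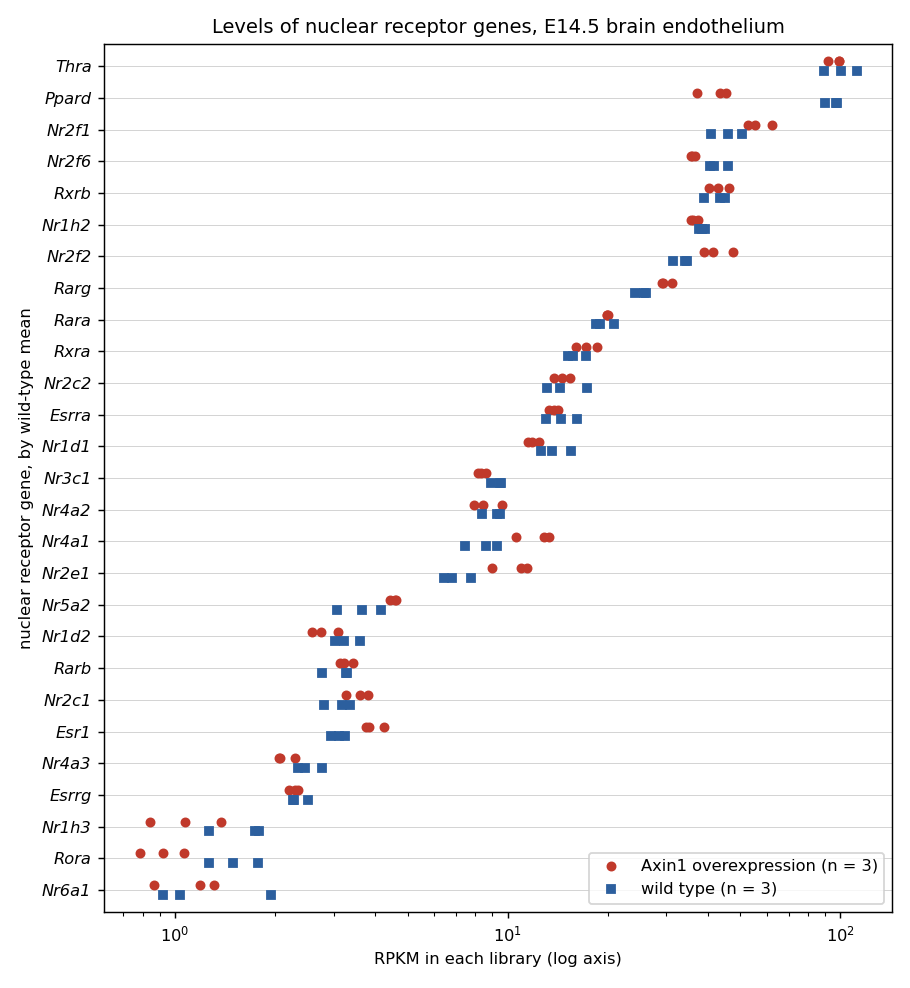
RPKM of the 27 tested nuclear receptor genes in each library on a log axis, ordered by wild-type mean; circles are Axin1 overexpression (upper row of each gene) and squares wild type (lower row). Thra and Ppard lead wild type at means of 100.4 and 94.6 RPKM, and the Ppard circles sit to the left of its squares, at a mean of 42.1 RPKM.

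The 17 members under a mean of 1 RPKM include receptors best known from liver, gut and endocrine organs. Esrrb averaged 0.687 RPKM with Axin1 overexpression and 0.714 RPKM in wild type. The gonadal and adrenal factor Nr5a1 averaged 0.552 RPKM with Axin1 overexpression and 0.458 RPKM in wild type, with overlap. The xenobiotic receptor Nr1i3 averaged 0.412 RPKM with Axin1 overexpression and 0.294 RPKM in wild type, without overlap. Nr0b1 (DAX1) had 16 recovered reads in the Axin1 libraries and 40 in wild type. The xenobiotic receptor Nr1i2 (PXR) had 4 reads in the Axin1 libraries and 10 in wild type. The bile acid receptor Nr1h4 had 1 read in each group. The photoreceptor factor Nr2e3 had 0 reads in the Axin1 libraries and 2 in wild type. Hnf4a, a regulator of liver genes, had 0 reads in all 6 libraries, which allows up to 3 reads in each, for counting error only. For a transcript of 1 kb, 3 reads came to 0.0815 to 0.143 RPKM in the Axin1 libraries and 0.0487 to 0.0567 RPKM in wild type. Tested with no filter, 0 of the 16 low members that had reads passed by limma on RPKM, and 4 had an unadjusted p under 0.05. By limma-voom on recovered reads 1 passed, Pparg (log2 fold change 2.13, limma adjusted p = 0.0163).

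Genes on which these receptors act were taken from lists. The lists also hold genes that act on or beside the receptors, such as transporters, enzymes, chaperones, clock partners, coactivators and corepressors. They are read here against the background of 14.4% rises and 8.37% falls. Of 17 tested PPAR target genes, 6 fell and 1 rose, with a median log2 fold change of -0.11. Angptl4, a secreted inhibitor of lipoprotein lipase, fell to 18.2 ± 2.73 RPKM with Axin1 overexpression, against 31.1 ± 3.37 RPKM in wild type (SD, n = 3 each, limma adjusted p = 0.00421). Pdk4, a brake on glucose oxidation, fell to 1.61 ± 0.224 RPKM with Axin1 overexpression, against 2.89 ± 0.252 RPKM in wild type (limma adjusted p = 0.00307). Cpt1a, Ucp2 and Acadvl, of mitochondrial fatty acid use and coupling, also fell. The call of Acadvl was lost in 9 of 18 alternatives and that of Ucp2 in 3, among them leaving out Axin1 replicate 2 or 3 for both. Of the fatty acid carriers in the list, Fabp5 had a log2 fold change of 0.13 and did not pass (limma adjusted p = 0.498). Cd36 rose to 1.69 ± 0.142 RPKM with Axin1 overexpression, against 0.532 ± 0.0919 RPKM in wild type (limma adjusted p = 0.000302). Fabp4, under the filter and not tested, had 1.67 ± 0.205 RPKM with Axin1 overexpression and 0.145 ± 0.0187 RPKM in wild type.

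LXR target genes fell in 5 of 11 cases and rose in 0, with 7 lower and 0 higher at an unadjusted p under 0.05 and 5 lower and 0 higher by voom. Their median log2 fold change was -0.31, in a list that includes Nr1h3. Abca1, which exports cholesterol, fell to 23.2 ± 0.771 RPKM with Axin1 overexpression, against 43.6 ± 0.678 RPKM in wild type (SD, n = 3 each, limma adjusted p = 9.16e-05). Lpcat3, a phospholipid remodelling enzyme, fell to 18.5 ± 1.15 RPKM with Axin1 overexpression, against 25.4 ± 0.942 RPKM in wild type (limma adjusted p = 0.00404). Srebf1, Scd2 and Pltp, of fatty acid synthesis and lipid transfer, fell by less. Of 18 alternatives the call was lost in 2 for Srebf1, 4 for Scd2 and 4 for Pltp, each of which includes leaving out Axin1 replicate 2.

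Retinoid handling and RAR target genes fell in 4 of 13 cases and rose in 1, with a median of -0.06. Stra6, the receptor that takes up retinol, fell to 13.5 ± 1.35 RPKM with Axin1 overexpression, against 27.6 ± 3.99 RPKM in wild type (SD, n = 3 each, limma adjusted p = 0.00115). Aldh1a1, an enzyme that makes retinoic acid, fell to 0.958 ± 0.478 RPKM with Axin1 overexpression, against 2.79 ± 0.715 RPKM in wild type (limma adjusted p = 0.00985). Aldh1a2, which does the same and is also a marker of the meninges, and Rarres2 fell, and the carrier Crabp1 rose. By voom 3 fell and 0 rose. Rarres2 lost its call in 8 of 17 alternatives, Crabp1 in 6 of 17 and Aldh1a2 in 5 of 18, among them leaving out Axin1 replicate 1 or 2 for each. The meningeal marker sums given above overlapped between the groups, with wild-type replicate 1 the highest, and their part in these falls was not tested.

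Of the thyroid hormone genes only 6 reached the filter, and 3 fell and 0 rose (4 and 0 at an unadjusted p under 0.05, 3 and 0 by voom). Slco1c1, which carries the hormone, and Slc7a5, which carries amino acids, are also known as transporters of the blood-brain barrier. Slco1c1 fell to 24.5 ± 2.56 RPKM with Axin1 overexpression, against 93.6 ± 11.0 RPKM in wild type (SD, n = 3 each, limma adjusted p = 3.84e-05). Slc7a5 fell to 407 ± 31.7 RPKM with Axin1 overexpression, against 802 ± 24.1 RPKM in wild type (limma adjusted p = 0.000150). The median of the list was -0.63, while the receptor Thra had -0.05.

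Glucocorticoid receptor target and chaperone genes moved the other way, with 7 of 13 higher and 0 lower (9 and 0 at an unadjusted p under 0.05, 8 and 0 by voom) and a median of 0.33. Dusp1, a phosphatase of the MAP kinases, rose to 36.0 ± 6.02 RPKM with Axin1 overexpression, against 22.8 ± 1.55 RPKM in wild type (SD, n = 3 each, limma adjusted p = 0.00899). Fkbp5, a co-chaperone of the receptor, rose to 34.3 ± 0.413 RPKM with Axin1 overexpression, against 27.1 ± 0.580 RPKM in wild type (limma adjusted p = 0.00585). The chaperone genes Hsp90ab1, Hsp90aa1 and Ptges3 and the targets Sgk1 and Mt2 also rose. The call of Hsp90aa1 was lost in 10 of 18 alternatives, among them both rescalings and leaving out Axin1 replicate 1, 2 or 3 or wild-type replicate 1. The other tested genes of the list did not pass. Their log2 fold changes were 0.28 for Mt1, 0.22 for Fkbp4, 0.05 for Tsc22d3, -0.03 for Per1, -0.05 for Hsd11b2 and -0.10 for Klf9. The receptor Nr3c1 itself had -0.14 and did not pass.

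Clock partners and targets of the REV-ERB and ROR receptors gave 0 limma calls among 12, with 1 higher and 2 lower at an unadjusted p under 0.05 and 0 by voom. Tef came closest, at 9.44 ± 0.313 RPKM with Axin1 overexpression and 10.9 ± 0.529 RPKM in wild type (SD, n = 3 each, limma adjusted p = 0.0582). It passed in 5 of 18 alternatives, among them both rescalings, where the lowest limma adjusted p was 0.0288. Among 21 coactivators and corepressors, 5 fell and 1 rose, with a median of -0.06. The corepressor Ncor1 fell to 73.8 ± 4.84 RPKM with Axin1 overexpression, against 105 ± 5.68 RPKM in wild type (limma adjusted p = 0.00314). Nrip1, another corepressor, fell to 4.98 ± 0.103 RPKM with Axin1 overexpression, against 7.44 ± 0.986 RPKM in wild type (limma adjusted p = 0.00654). Ncoa4 and Crebbp also fell and the methyltransferase Prmt1 rose. Without Axin1 replicate 2 these 3 calls were lost, and in all Ncoa4 lost its call in 6 of 17 alternatives and Crebbp in 5 of 18.

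**Figure D5:**
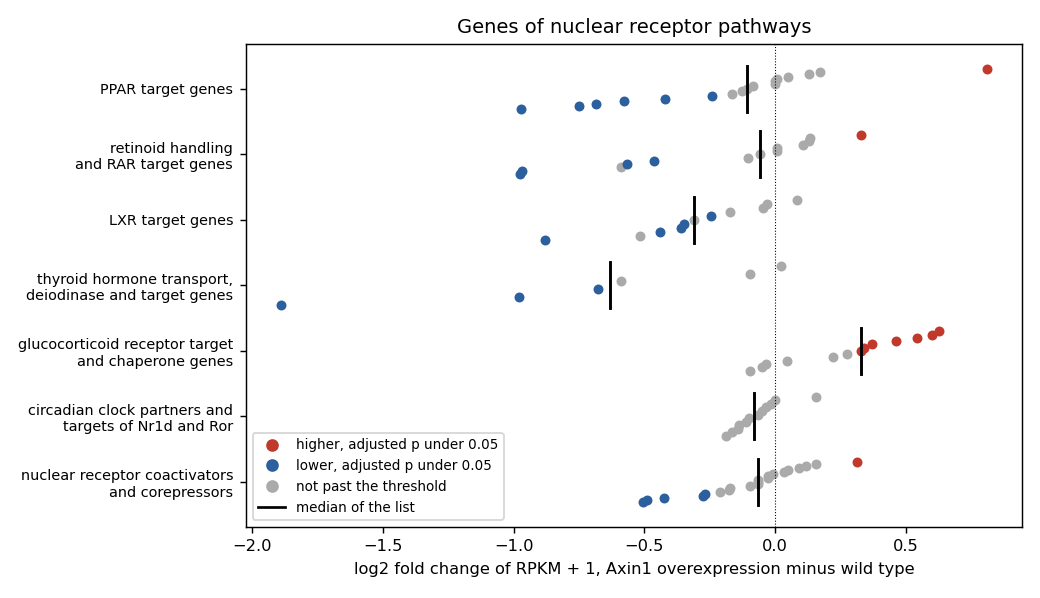
Log2 fold change of RPKM + 1, Axin1 overexpression minus wild type, of the tested genes of 7 nuclear receptor pathway lists (points), with the median of each list as a black line. The medians lie between -0.63 for thyroid hormone genes and 0.33 for glucocorticoid receptor target and chaperone genes; some genes stand in more than 1 list.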

How the data were processed

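RNA of 3 Axin1 and 3 wild-type libraries was prepared by TRAP, per the labels' protocols. Bowtie, DESeq and mm9 are named, with no versions, in the submitters' processing notes; the sources used here do not give the counter or the filters. Each library has an RPKM column that the authors deposited. Its header states no unit, which was settled from the transcript lengths the values imply. Per the file headers, the authors' columns also hold the mean normalized count signal of each group, a fold between these means, and a p-value before and after adjustment. The group behind each mean was identified from genes with reads in 1 library, and the fold is the ratio of wild type to Axin1.

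Whole reads were recovered from RPKM and the group means. For genes with 1 listed transcript 100.0% of values were whole to within 0.05 reads; the share was 24.0% where several transcripts are listed and 83.6% overall. Of the members, 25 have 1 transcript listed; for the other 19, recovered reads are estimates. The Axin1 libraries had 0.543 of the wild-type depth on average, and no replicates agreed within sampling noise.

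The main test was limma (version 3.58.1, R 4.3.3) applied to log2(RPKM + 1) of the 12493 genes averaging at least 1 RPKM, with group as the only factor. P-values are two-sided and adjusted by Benjamini-Hochberg over these genes, with a threshold of 0.05. This scale understates the change of low genes. With 3 libraries a group, an exact permutation test could reach 0.10 at best, so none was run. Tables and plots were made in Python 3.11.15 (pandas 2.3.3, numpy 2.4.6, matplotlib 3.10.9). The limma step was tested on simulated data.

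All members averaging at least 1 RPKM are named, with per-library values for called members and the highest tested member of each subfamily. Of each pathway list, the 4 genes with the lowest p could be named; others complete a group or were chosen after their values were seen. The members and lists were chosen with earlier results of these data known, and some genes stand in more than 1 list. Some genes counted in the lists are not reported here by name. Alternatives were the replicate number as a block, pseudocounts of 0.1 and 10, no filter, a filter at 5 RPKM, rescaling to a median of ratios or upper quartile, trend and robust variances, voom on recovered reads, and leaving out each library. Added after seeing the data were a correction for GC content and transcript length, thinning to the shallowest library, and voom with no filter. Promoters are on GRCm38.p6, not the authors' mm9, and were used only for sequence.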

Additional observations from a re-analysis of the deposited data

How the results depend on the processing

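Ppard kept its direction and its call under each of 18 alternatives (-1.21 to -1.01), and so did Nr2e1 (0.27 to 0.61). Leaving out each library gave 1054 to 2318 genes called in place of 2846, the low end without Axin1 replicate 2 and 1402 without Axin1 replicate 3. It gave 1 to 5 members higher in place of 6, and 1 to 3 lower in place of 3. The median log2 fold change of the tested members was -0.033. It was -0.073 after rescaling to a median of ratios, -0.081 after rescaling to the upper quartile, 0.0035 after correction for GC content and transcript length, and -0.051 to 0.064 when leaving out each library. The cause of these shifts was not tested. The replicate numbers were not taken as pairs, since the correlation of deviations was 0.0593 to 0.127 for libraries with the same number and -0.110 to 0.0140 otherwise. All 6 libraries correlated best with their own number, a hint from the data and not the design. With the replicate block, 5 members were higher, 2 were lower and 2675 genes were called in all, with Ppard at -1.15. Hnf4a, Nr2e3 and Nr1h4, with at most 2 recovered reads a group, could not be compared at this depth.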
